A study of Homo sapiens with 12 samples.

Results

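Genes for collagens, laminins and glycoproteins of the extracellular matrix were examined in U-87 MG cells, an established human glioblastoma line, after loss of HIF1α, of HIF2α or of both under hypoxia. The set was a fixed list of symbols, and each of its 43 genes was found among the 20263 genes of the table. It held 17 collagen genes, 7 laminin genes, 4 genes that link the networks of basement membranes, 4 elastic fibre glycoproteins, 6 matricellular glycoproteins, fibronectin and versican, and 3 small leucine-rich proteoglycans. The list was written with other results of this table known, so the counts below are read beside the share of all tested genes.

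Collagens are triple helices built from α chains that are hydroxylated in the endoplasmic reticulum and crosslinked outside the cell. Fibrillar collagens carry tensile load, type IV collagen and laminins form the networks of basement membranes, and glycoproteins such as fibronectin and tenascin C link the fibres to receptors on the cell. HIF1α and HIF2α are the oxygen-regulated subunits of hypoxia-inducible factors, which bind DNA with a shared partner, and enzymes of collagen hydroxylation and crosslinking are among their known targets.

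The 4 groups held 3 libraries each. Vector cells carried an empty vector, and the others had a knockout of HIF1α (HIF1α-ko), of HIF2α (HIF2α-ko) or of both (HIF1α/2α-ko, the dual knockout). All groups were kept at 1% O2, for 72 h by the record of the experiment, whereas the methods describe a shorter exposure for mRNA detection in general. No normoxic library was analysed here, and whether a knockout was 1 clone or a pool is not given in the sources used here. No source says that the libraries came from separate cultures, so p-values measure only the spread between these libraries, which may be technical. Fewer cells of a kind and less RNA per cell cannot be told apart in such bulk samples.

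Expression is given as TPM, the length-scaled share of a gene among all transcripts of its library. The table therefore keeps no sequencing depth. The depth of the libraries is unknown. Genes reaching 1 TPM in 3 or more libraries were tested, and 11731 passed. Fold changes are differences of log2(TPM + 1) from a limma model of the 4 groups, which understate the change of low genes, and a gene is called changed at an adjusted p under 0.05.

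HIF1A TPM was 112, 110 and 152 in vector, 57.3, 49.5 and 38.6 without HIF1α, 108, 76.1 and 76.6 without HIF2α and 89.2, 67.8 and 69.4 without both. EPAS1, the gene of HIF2α, had 286, 333 and 346 TPM in vector, 251, 288 and 255 without HIF1α, 87.6, 118 and 116 without HIF2α and 101, 120 and 130 without both. HIF1A fell in HIF1α-ko (log2 fold change -1.34, adjusted p = 0.000851) and the dual knockout (-0.71, adjusted p = 0.0104), and EPAS1 fell in HIF2α-ko (-1.59, adjusted p = 0.000375) and the dual knockout (-1.45, adjusted p = 1.3e-05). Both were still present where they were targeted, and edited copies cannot be told from intact ones by TPM. HIF1A stood higher in the dual knockout than in the single one (log2 fold change 0.64, adjusted p = 0.0287).

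Of the 9 glioma and mesenchymal line markers, VIM was the highest, at 5635 to 14690 TPM, followed by S100A6 at 1676 to 4255, CD44 at 399 to 1412 and CHI3L1 at 228 to 977. NES had 2.64 to 6.17 TPM and OLIG2 0.884 to 19.2, while GFAP, SOX2 and S100B stayed under 1 TPM in every library. The defining marker of immune cells, PTPRC, the epithelial marker EPCAM, the endothelial markers CLDN5, TEK and ESAM and the mural cell and fibroblast markers RGS5 and PDGFRA also stayed under 1 TPM. PDGFRB, ACTA2, CSPG4, NOTCH3 and DES, also of the mural cell and fibroblast list, passed the filter for testing. So did the endothelial markers CDH5 and VWF and the epithelial markers KRT8, KRT18, KRT19 and CLDN4. Of the immune markers CD68 and CSF1R passed it. The summed TPM of the 7 mural cell and fibroblast markers was 218 to 294 in vector, 228 to 293 without HIF1α, 244 to 267 without HIF2α and 190 to 200 without both. Over the 7 endothelial markers it ran from 1.55 to 8.25 across the libraries, and over the 7 epithelial markers from 24.3 to 54.7. Over the 7 immune markers, nearly all from the lysosomal gene CD68, it was 1288 to 1638 in vector, 821 to 1067 in HIF1α-ko, 1015 to 1229 in HIF2α-ko and 591 to 821 in the dual knockout. VIM also fell in the dual knockout (log2 fold change -0.96, adjusted p = 0.000412), and OLIG2 rose (2.31, adjusted p = 0.000828). The part of these differences in the results below was not tested.

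Vector replicate 1 stood apart from vector replicates 2 and 3. It differed from their mean by at least 1 on the log2 scale in 7 of the 35 tested matrix genes, against 6.71% of all tested genes. The difference was 2.40 for COL1A2, 1.53 for DCN and 1.36 for LAMA4, and it was -1.84 for FN1 and -1.60 for BGN. Dual knockout replicate 1 also stood apart over all genes, with 5.32% of genes that far from its partners against 1.12% and 0.912% for replicates 2 and 3, but no matrix gene reached 1 in any knockout library, and SPARC came nearest in it at 0.99. The calls against vector lost without vector replicate 1 were those of COL5A2, LAMC1 and SPARC in the dual knockout, and values without it are given where it matters most.

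**Figure D1:**
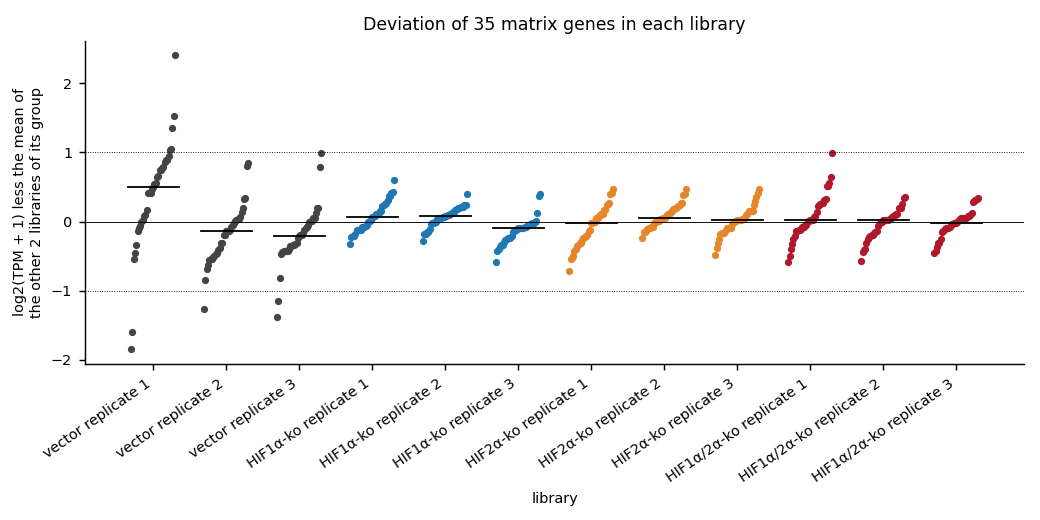
Each point is 1 of the 35 tested matrix genes in 1 library, and the y axis gives its log2(TPM + 1) less the mean of the other 2 libraries of the group. Black bars are medians and dotted lines mark a difference of 1. Vector replicate 1 has the widest spread, from -1.84 to 2.40, and a median of 0.50.

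Among the 35 tested members, 16 (45.7%) fell and 4 rose in the dual knockout against vector. Of all tested genes 14.8% fell and 31.8% rose in that comparison. In HIF1α-ko 9 members rose and 3 fell, beside 17.3% higher and 8.77% lower among all genes, so the share of risers (25.7%) was above and the share of fallers (8.57%) close to the background. In HIF2α-ko 4 members rose and 1 fell, beside 5.07% and 5.89% of all genes. The median member change was 0.002 below the median of all genes in HIF1α-ko, 0.02 above it in HIF2α-ko and 0.55 below it in the dual knockout, with medians of all genes of 0.18, -0.04 and 0.21 in that order. Without vector replicate 1, 14 members fell and 7 rose in the dual knockout, 4 fell and 15 rose in HIF1α-ko, and 2 fell and 7 rose in HIF2α-ko. In that fit 1799, 1366 and 1193 of all genes fell and 3873, 2828 and 1304 rose, in the same order. With median ratio scaling, which sets the medians of all genes near 0, the counts were 18 lower and 1 higher, 5 lower and 4 higher, and 0 lower and 4 higher, in the same order, while 2698, 1545 and 579 of all genes were lower and 2760, 1285 and 761 higher.

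Summed over the 43 genes, TPM was 5956 to 6253 in vector, 6227 to 6820 without HIF1α, 5040 to 5740 without HIF2α and 3925 to 4170 without both. The 3 dual knockout libraries lay below all other libraries in this sum. The collagen genes made up 2700 ± 103 TPM in vector, 3449 ± 183 without HIF1α, 2463 ± 312 without HIF2α and 1896 ± 65.8 without both (mean ± SD, n = 3). Most of it came from the chains of type VI collagen.

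**Figure D2:**
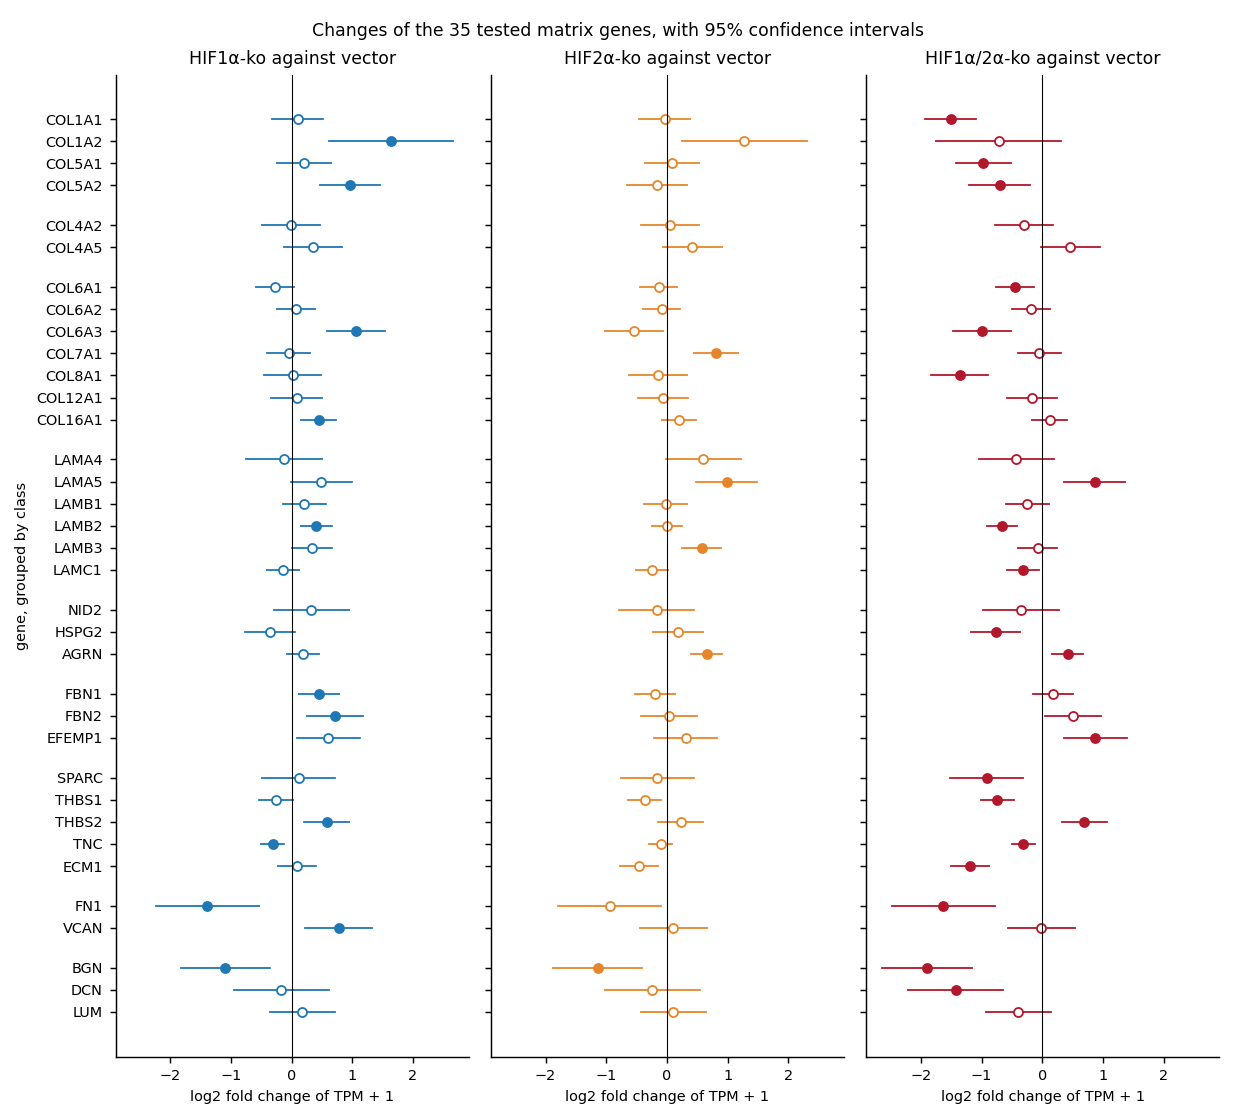
Each row is 1 of the 35 tested genes, grouped by class in the order of the text, and each panel is a knockout against vector. Points are log2 fold changes of TPM + 1, lines are 95% confidence intervals, and filled points have an adjusted p under 0.05. Filled points lie on both sides of 0 in the single knockouts, and 16 of the 20 in the dual knockout lie below 0.

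COL1A1 encodes the α1 chain of type I collagen, the main fibrillar collagen (ENSG00000108821, GRCh38 chromosome 17 from 50183289 to 50201632, minus strand). Its TPM was 26.8, 16.5 and 19.9 in vector, 22.1, 23.2 and 21.2 without HIF1α, 16.3, 22.9 and 21.6 without HIF2α and 5.53, 6.70 and 7.72 without both. The single knockouts overlapped with vector, and every dual knockout library lay below the other 9. The log2 fold change in the dual knockout was -1.51 (standard error 0.19, adjusted p = 6.68e-05), a level of 0.351 times vector on the TPM + 1 scale. The values in HIF1α-ko (0.10, adjusted p = 0.736) and HIF2α-ko (-0.04, adjusted p = 0.927) did not pass. Without vector replicate 1 the dual change was -1.33 (adjusted p = 0.00015).

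COL1A2, the α2 chain that joins COL1A1 in type I collagen (ENSG00000164692, chromosome 7 from 94394561 to 94431232, plus strand), varied within vector. Its TPM was 261, 47.2 and 49.9 in vector, 275, 264 and 261 without HIF1α, 187, 229 and 211 without HIF2α and 59.9, 44.5 and 51.3 without both. Vector replicate 1 lay at the level of HIF1α-ko, and the other vector libraries at that of the dual knockout. COL1A2 rose in HIF1α-ko (log2 fold change 1.63, standard error 0.47, adjusted p = 0.0249), and the values of 1.28 in HIF2α-ko (adjusted p = 0.104) and -0.72 in the dual knockout (adjusted p = 0.231) did not pass. Without vector replicate 1 these became 2.43 (adjusted p = 2.01e-06), 2.08 (adjusted p = 1.39e-05) and 0.08 (adjusted p = 0.627), so the direction against vector in the dual knockout hung on that library. The fold changes against the single knockouts do not use vector, which enters only the estimate of spread. In the dual knockout the log2 fold change of COL1A2 was -2.35 against HIF1α-ko (adjusted p = 0.00324) and -1.99 against HIF2α-ko (adjusted p = 0.00439). The ratio of COL1A2 to COL1A1 TPM was 9.77 in vector replicate 1 and 2.87 and 2.51 in replicates 2 and 3, against 11.4 to 12.5 in HIF1α-ko, 9.76 to 11.5 in HIF2α-ko and 6.64 to 10.8 in the dual knockout.

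Type V collagen is a minor partner of type I fibrils that takes part in starting them. COL5A1 (α1 chain) had 61.9, 66.0 and 66.4 TPM in vector and 24.7, 36.9 and 38.0 in the dual knockout, a log2 fold change of -0.97 (adjusted p = 0.0024), with 67.8 to 83.8 TPM in HIF1α-ko and 49.2 to 85.6 in HIF2α-ko. COL5A2 (α2 chain) rose in HIF1α-ko, from 21.4, 10.4 and 10.9 TPM in vector to 24.5, 30.0 and 27.2 (log2 fold change 0.96, adjusted p = 0.0104), and fell in the dual knockout to 7.38, 8.04 and 8.28 (-0.70, adjusted p = 0.0239). Without vector replicate 1 the fall of COL5A2 no longer passed (-0.39, adjusted p = 0.0551). COL3A1 and COL11A1, the other fibrillar chains of the list, did not pass the filter, with at most 0.442 and 0.130 TPM in any library. Of the 4 tested fibrillar chains, 3 fell and 0 rose in the dual knockout, beside 14.8% and 31.8% of all tested genes.

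Type VI collagen forms beaded filaments around cells, and its chains were the most abundant collagens here. COL6A3, the large α3 chain (ENSG00000163359, chromosome 2 from 237324003 to 237414375, minus strand), had 953, 510 and 518 TPM in vector, 1289, 1403 and 1271 without HIF1α, 345, 523 and 453 without HIF2α and 287, 329 and 336 without both. All HIF1α-ko libraries lay above the other 9, and all dual knockout libraries lay below the rest. COL6A3 rose in HIF1α-ko (log2 fold change 1.06, standard error 0.22, adjusted p = 0.00495), fell in the dual knockout (-0.99, adjusted p = 0.0027) and had a value of -0.54 in HIF2α-ko (adjusted p = 0.133). Both calls held without vector replicate 1, at 1.36 (adjusted p = 0.000118) and -0.70 (adjusted p = 0.00321).

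The shorter chains of type VI collagen gave smaller values. COL6A1 had 573 to 823 TPM in vector and 505 to 530 in the dual knockout (log2 fold change -0.44, adjusted p = 0.0226), with no call in the single knockouts. COL6A2 had 775 to 1169 TPM in vector and 828 to 902 in the dual knockout, and no comparison with vector passed. The ratio of COL6A3 to COL6A1 was 2.19 to 2.35 in HIF1α-ko, 0.550 to 0.719 across the HIF2α-ko and dual knockout libraries, 0.620 and 0.694 in vector replicates 2 and 3, and 1.66 in vector replicate 1.

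COL8A1 encodes a short-chain collagen of vessel walls and of the corneal membrane (ENSG00000144810, chromosome 3 from 99638475 to 99799226, plus strand). Its TPM was 17.7, 14.5 and 11.6 in vector, 13.7, 12.7 and 17.7 without HIF1α, 9.87, 13.6 and 15.8 without HIF2α and 5.77, 5.56 and 3.84 without both. The dual knockout libraries lay below the other 9, which overlapped between groups. The log2 fold change was -1.36 (standard error 0.22, adjusted p = 0.00033) and it was -1.22 without vector replicate 1 (adjusted p = 0.00134). COL7A1, the collagen of anchoring fibrils, rose in HIF2α-ko, from 28.9 to 43.4 TPM in vector to 57.1 to 67.8 (log2 fold change 0.81, adjusted p = 0.00971), and had 31.5 to 34.5 in the dual knockout. COL16A1, a fibril-associated collagen, rose in HIF1α-ko by 0.44 (adjusted p = 0.0281), a call lost with median ratio scaling (0.25, adjusted p = 0.27), and COL12A1 passed no comparison with vector.

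Basement membrane collagens were low. COL4A1 and COL4A2 encode the α1 and α2 chains that are usually made together, from divergent genes whose RefSeq starts lie 127 bases apart on chromosome 13, at 110307157 on the minus strand and 110307284 on the plus strand. COL4A1 is listed at 0 in every library, while COL4A2 had 0.823 to 2.63 TPM. In GENCODE 29 these genes overlap only from 110305812 to 110307233, while COL4A1 reaches down to 110148963. The use of strand in counting is not stated, so reads of the shared stretch may not have been told apart. Why COL4A1 is listed at 0 was not tested. COL4A5 had 1.87 to 4.45 TPM, and neither it (log2 fold change 0.46 in the dual knockout, adjusted p = 0.107) nor COL4A2 (-0.29, adjusted p = 0.294) passed a comparison with vector. COL18A1, the precursor of endostatin, was at most 0.261 TPM and was not tested.

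Laminins are trimers of an α, a β and a γ chain. LAMB2, the β2 chain (ENSG00000172037, chromosome 3 from 49121114 to 49133118, minus strand), had 305, 356 and 318 TPM in vector, 399, 472 and 428 without HIF1α, 294, 361 and 329 without HIF2α and 193, 215 and 210 without both. HIF1α-ko lay above vector and the dual knockout below it with no overlap, and HIF2α-ko overlapped vector. The log2 fold change was 0.41 without HIF1α (adjusted p = 0.0231), 0.00 without HIF2α (adjusted p = 0.988) and -0.66 in the dual knockout (standard error 0.12, adjusted p = 0.000596). The rise in HIF1α-ko was lost with median ratio scaling (0.21, adjusted p = 0.225), and the fall was not (-0.91, adjusted p = 0.000111).

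The remaining laminin chains went separate ways. LAMA5, the α5 chain, rose in HIF2α-ko from 7.57 to 11.1 TPM in vector to 15.6 to 22.8 (log2 fold change 0.99, adjusted p = 0.0185), and in the dual knockout to 14.8 to 22.6 (0.86, adjusted p = 0.00851). With median ratio scaling its call in the dual knockout, that of EFEMP1 or both were lost. LAMB3, the β3 chain of laminin-332, rose in HIF2α-ko by 0.57 (adjusted p = 0.0299) and had 51.3 to 61.9 TPM in the dual knockout beside 52.4 to 70.5 in vector. LAMC1, the common γ1 chain, fell in the dual knockout by 0.32 on the log2 scale (adjusted p = 0.0451), which did not pass without vector replicate 1 (adjusted p = 0.0567). LAMA4 and LAMB1 passed no comparison with vector, and LAMA2, at most 0.275 TPM, was not tested. Of the 6 tested laminin chains 1 rose and 2 fell in the dual knockout, beside 31.8% and 14.8% of all tested genes.

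Perlecan and agrin, heparan sulfate proteoglycans that bridge laminins and other networks, moved apart. HSPG2 (perlecan) had 20.4, 25.6 and 26.4 TPM in vector and 17.6, 12.4 and 11.7 in the dual knockout (log2 fold change -0.77, standard error 0.19, adjusted p = 0.00523), and passed in neither single knockout. AGRN (agrin) had 71.5, 70.0 and 65.0 TPM in vector, 115, 112 and 101 in HIF2α-ko and 98.4, 90.7 and 88.5 in the dual knockout. It rose in HIF2α-ko (0.66, adjusted p = 0.00615) and in the dual knockout (0.42, adjusted p = 0.0115), the second of which was lost with median ratio scaling (0.17, adjusted p = 0.397). The nidogens tie laminin to type IV collagen: NID2 had 6.45 to 17.4 TPM and passed no comparison with vector, and NID1 was at most 0.166 TPM.

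Among elastic fibre glycoproteins no tested gene fell. EFEMP1 (fibulin 3) rose in the dual knockout from 3.75, 1.43 and 2.20 TPM in vector to 5.32, 4.07 and 6.15 (log2 fold change 0.88, standard error 0.24, adjusted p = 0.00995). With median ratio scaling this call, that of LAMA5 in the dual knockout or both were lost. The microfibril genes FBN1 and FBN2 rose in HIF1α-ko by 0.46 (adjusted p = 0.0436) and 0.72 (adjusted p = 0.0279). The call on FBN1 was lost with median ratio scaling (0.26, adjusted p = 0.205) and that on FBN2 was kept (0.55, adjusted p = 0.0473). FBLN1 (fibulin 1) was listed at 0 in 9 libraries and reached at most 0.0889 TPM.

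Matricellular proteins modulate the contact of cells with the matrix. Of the 5 tested genes 4 fell and 1 rose in the dual knockout, beside 14.8% and 31.8% of all tested genes. ECM1, a secreted glycoprotein that binds perlecan and fibulins (ENSG00000143369, chromosome 1 from 150508062 to 150513789, plus strand), had 365, 340 and 309 TPM in vector, 370, 367 and 338 without HIF1α, 243, 243 and 247 without HIF2α and 187, 120 and 142 without both. HIF1α-ko overlapped vector, HIF2α-ko lay below both, and the dual knockout lay lowest. The log2 fold change without both was -1.19 (standard error 0.14, adjusted p = 4.71e-05), and the value of -0.46 without HIF2α did not pass (adjusted p = 0.0603).

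SPARC, a collagen-binding glycoprotein, had 1142, 595 and 663 TPM in vector, 982, 787 and 738 without HIF1α, 774, 657 and 637 without HIF2α and 641, 312 and 334 without both. Replicate 1 was the highest library in every group. In the dual knockout it overlapped vector and HIF2α-ko and lay below every HIF1α-ko library. The log2 fold change of -0.92 in the dual knockout (adjusted p = 0.0163) became -0.63 (adjusted p = 0.0655) without vector replicate 1. THBS1, an activator of TGF-β, was low in all groups and fell from 1.62, 1.56 and 1.59 TPM to 0.558, 0.549 and 0.539 in the dual knockout (-0.74, adjusted p = 0.000496). Its relative THBS2 rose without HIF1α (0.57, adjusted p = 0.0279) and in the dual knockout (0.70, adjusted p = 0.00525), and both calls were lost with median ratio scaling (adjusted p = 0.145 and 0.0592).

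TNC (tenascin C), a glycoprotein of glioma matrix, had 852, 902 and 879 TPM in vector, 711, 729 and 676 without HIF1α, 840, 839 and 775 without HIF2α and 683, 715 and 724 without both. All knockout libraries lay below all vector libraries. The log2 fold changes were -0.32 in HIF1α-ko (adjusted p = 0.0224) and -0.31 in the dual knockout (adjusted p = 0.0124), and the value in HIF2α-ko did not pass (-0.10, adjusted p = 0.503). POSTN (periostin) was at most 0.529 TPM and was not tested.

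FN1 encodes fibronectin, on which other matrix proteins assemble (ENSG00000115414, chromosome 2 from 215360440 to 215436172, minus strand). Its TPM was 169, 586 and 629 in vector, 130, 181 and 145 without HIF1α, 161, 247 and 221 without HIF2α and 106, 134 and 145 without both. Vector replicate 1 lay within the range of the single knockouts, and the other vector libraries lay above all knockout libraries. FN1 fell in HIF1α-ko (log2 fold change -1.39, standard error 0.39, adjusted p = 0.0222) and in the dual knockout (-1.63, adjusted p = 0.00464), and its value in HIF2α-ko did not pass (-0.94, adjusted p = 0.146). Without vector replicate 1 the values were -2.00 (adjusted p = 6.32e-05), -2.24 (adjusted p = 1.09e-05) and -1.55 (adjusted p = 0.000583). Values of FN1 without either of the other vector libraries, where it was high, are not given here. Of the 12 member calls in HIF1α-ko, 1 held under every alternative fit in which its gene was tested. VCAN (versican), a large chondroitin sulfate proteoglycan, rose in HIF1α-ko from 0.959 to 2.34 TPM to 2.08 to 3.91 (0.78, adjusted p = 0.0417), a call lost with median ratio scaling (0.65, adjusted p = 0.088).

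BGN (biglycan) is a small proteoglycan that binds collagen fibrils (ENSG00000182492, chromosome X from 153494939 to 153509554, plus strand). Its TPM was 16.9, 53.7 and 53.2 in vector, 16.1, 18.4 and 15.5 without HIF1α, 13.2, 17.0 and 18.5 without HIF2α and 10.4, 8.09 and 8.86 without both. As for FN1, vector replicate 1 lay among the single knockouts, while the dual knockout lay below every other library. BGN fell without HIF1α (log2 fold change -1.09, adjusted p = 0.0339), without HIF2α (-1.14, adjusted p = 0.0499) and in the dual knockout (-1.90, standard error 0.34, adjusted p = 0.000701). The call in HIF2α-ko lay at the threshold and was lost under 18 of 21 alternatives, while without vector replicate 1 it was -1.68 (adjusted p = 0.000152).

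DCN (decorin), a close relative of biglycan, fell in the dual knockout from 5.77, 2.13 and 0.762 TPM to 0.216, 0.255 and 0.264 (log2 fold change -1.43, adjusted p = 0.0062), and the value was -0.92 without vector replicate 1 (adjusted p = 0.00945). Its vector libraries were far apart, but none overlapped the dual knockout. LUM (lumican) had 0.939 to 3.62 TPM in vector and 1.07 to 1.38 in the dual knockout and passed no comparison with vector.

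**Figure D3:**
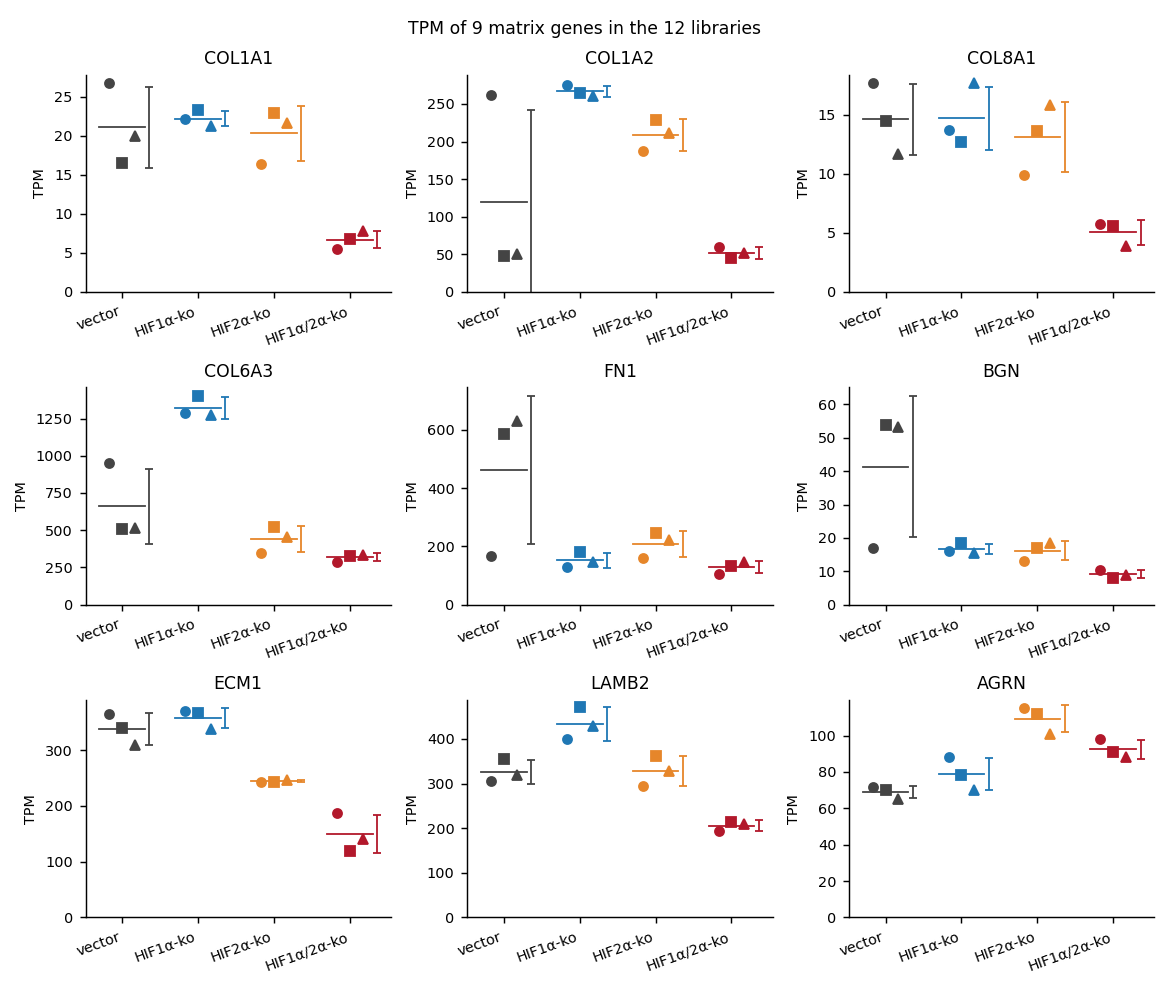
Each panel is 1 gene, the y axis is TPM from 0, and the 4 groups stand on the x axis with circles, squares and triangles for replicates 1, 2 and 3, a line at the mean and a bar of ± 1 SD (n = 3), cut at 0 for COL1A2 in vector. In COL1A1, COL8A1, COL6A3, BGN, ECM1 and LAMB2 the dual knockout libraries lie below all others, and in COL1A2, FN1 and BGN vector replicate 1 lies with the single knockouts.

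The dual knockout was next compared with each single knockout, which asks what losing the other factor adds and does not use the vector libraries except for the estimate of spread. Against HIF1α-ko, 12 members were lower and 0 higher, beside 10.6% lower and 17.7% higher among all genes. The lower genes included COL1A1 (-1.61, adjusted p = 0.000133), COL6A3 (-2.06, adjusted p = 7.25e-05), COL5A2 (-1.66, adjusted p = 0.000314) and LAMB2 (-1.07, adjusted p = 8.03e-05). Against HIF2α-ko, 13 members were lower and 1, THBS2, higher (0.47, adjusted p = 0.0395), beside 12.9% lower and 33.5% higher among all genes. COL1A1 (-1.47, adjusted p = 8.08e-05), COL8A1 (-1.21, adjusted p = 0.000756), HSPG2 (-0.95, adjusted p = 0.00141), COL7A1 (-0.86, adjusted p = 0.00113) and LAMA4 (-1.03, adjusted p = 0.0114) were among the lower ones.

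Same-numbered knockout libraries deviated together, and a paired fit of the 9 knockout libraries with a replicate block, chosen after seeing the data, called more members. It gave 22 lower and 2 higher against HIF1α-ko, while 2286 of all genes were lower and 3398 higher, and 22 lower and 4 higher against HIF2α-ko, beside 2225 and 5114 of all genes. FN1, BGN, COL6A3 and COL5A2 then also passed as lower than in HIF2α-ko, at -0.69 (adjusted p = 0.000476), -0.76 (adjusted p = 0.00345), -0.45 (adjusted p = 0.00517) and -0.54 (adjusted p = 0.00166). Median ratio scaling gave 13 lower and 0 higher against HIF1α-ko, and 22 lower and 0 higher against HIF2α-ko, beside 1498 lower and 1891 higher and 2558 lower and 2651 higher of all genes. Without vector replicate 1, which enters only through the spread, 19 members were lower than in HIF1α-ko and 20 lower and 4 higher than in HIF2α-ko, beside 1588 lower and 2484 higher and 1749 lower and 4255 higher of all genes.

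Whether the single effects add up was tested with the interaction, that is, how far the dual change departs from both single changes added together. It was negative and passed for 10 members and was positive and passed for 0, beside 7.35% negative and 13.2% positive calls among all genes. The 10 were 7 collagen genes, the laminin chains LAMB2 and LAMB3, and ECM1. All 4 tested fibrillar chains were among them, with COL1A2 at -3.63 (standard error 0.67, adjusted p = 0.00383), COL1A1 at -1.57 (adjusted p = 0.00299), COL5A2 at -1.50 (adjusted p = 0.0083) and COL5A1 at -1.26 (adjusted p = 0.0118). FN1 (0.70, adjusted p = 0.395) and BGN (0.33, adjusted p = 0.657) did not pass. Without vector replicate 1 they passed as positive, at 1.31 (adjusted p = 0.00437) and 0.87 (adjusted p = 0.0139), beside 18 negative calls of members. The share of all genes called in that fit is not given here. In the fit of all 12 libraries the median member value was -0.52 against 0.12 over all genes.

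The interaction also compares the loss of HIF1α in cells with HIF2α and in cells without it, and these 2 differences share no library. HIF1A RNA itself did not pass between the dual knockout and HIF2α-ko (log2 fold change -0.19, adjusted p = 0.453), so its level does not check the label in that comparison. COL6A3 was higher by 1.06 after loss of HIF1α where HIF2α was present and had a value of -0.45 where it was absent (adjusted p = 0.108). COL5A2 gave 0.96 and -0.54 (adjusted p = 0.0732 for the second), LAMB2 0.41 and -0.67 (adjusted p = 0.000585), and COL1A2 1.63 and -1.99. Both values passed for LAMB2 and COL1A2, with opposite signs, but the first was lost under 6 of 21 alternatives for LAMB2 and under 7 of 21 for COL1A2, among them leaving out vector replicate 3. For the loss of HIF2α, COL7A1 was higher by 0.81 where HIF1α was present and had a value of -0.002 where it was absent (adjusted p = 0.996), and LAMB3 gave 0.57 and -0.41 (adjusted p = 0.0584, and 0.00448 with the replicate block over the knockout groups).

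**Figure D4:**
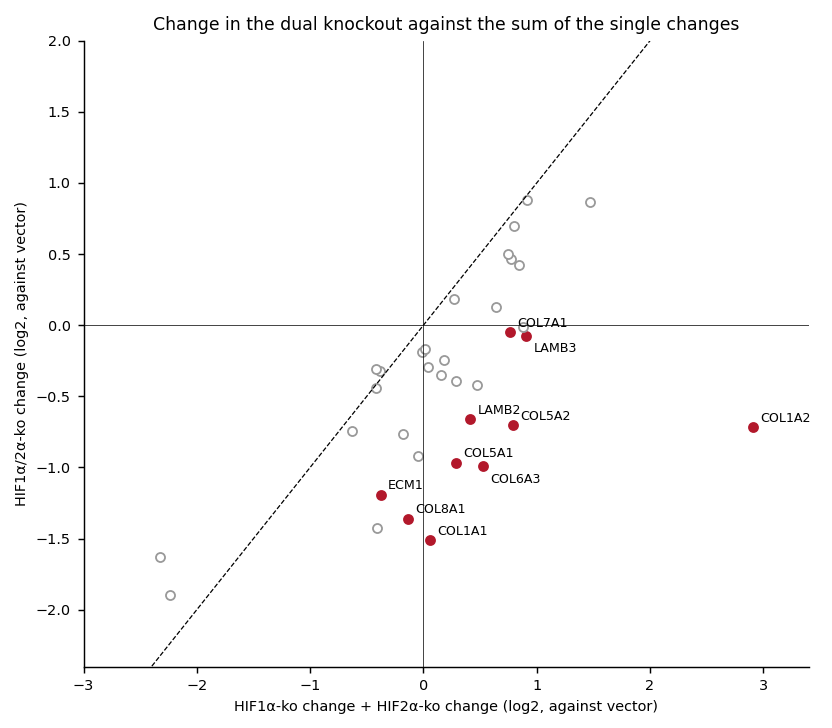
Each point is 1 of the 35 tested genes, with the sum of its log2 changes in the single knockouts on the x axis and its log2 change in the dual knockout on the y axis. The dashed line marks equal values, and the 10 named filled points have an interaction with an adjusted p under 0.05. These points all lie below the line, with COL1A2 farthest from it.

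Other matrix genes from lists of known collagens, laminins, glycoproteins, proteoglycans and collagen-processing enzymes gave 28 lower and 7 higher of 58 tested in the dual knockout, 7 lower and 11 higher in HIF1α-ko, and 5 lower and 5 higher in HIF2α-ko. Their shares were 48.3% lower and 12.1% higher in the dual knockout, beside 14.8% and 31.8% of all genes, while in HIF1α-ko 12.1% lower and 19.0% higher lay near the 8.77% and 17.3% of all genes. In HIF2α-ko they were 8.62% each way, beside 5.89% and 5.07%. Among the 22 tested genes of collagen folding and processing, 11 fell and 4 rose in the dual knockout. LOX, the lysyl oxidase that crosslinks collagen, had 816, 969 and 1140 TPM in vector, 793, 889 and 825 without HIF1α, 663, 446 and 445 without HIF2α and 135, 103 and 77.4 without both. Its dual change of -3.22 (standard error 0.21, adjusted p = 7.89e-07) was more than the sum of the single changes, with an interaction of -2.09 (adjusted p = 0.00122). LOXL2, its relative, rose in HIF1α-ko (0.56, adjusted p = 0.00202) and fell in HIF2α-ko (-0.90, adjusted p = 0.000848) and the dual knockout (-1.29, adjusted p = 2.08e-06). PLOD1, a lysyl hydroxylase of procollagen, fell in HIF1α-ko (-1.11, adjusted p = 0.000313) and the dual knockout (-1.52, adjusted p = 6e-06) and had a value of 0.01 in HIF2α-ko (adjusted p = 0.971).

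Of 22 tested glycoproteins outside the set, 12 fell and 1 rose in the dual knockout, beside 14.8% and 31.8% of all tested genes. TGFBI, a secreted integrin ligand, had 9010 to 12704 TPM in vector, above every gene of the set, and 2609 to 3162 in the dual knockout (log2 fold change -1.89, adjusted p = 3.21e-06). EFEMP2 (fibulin 4) fell by 1.21 (adjusted p = 1.54e-05) and MATN2 (matrilin 2) by 1.11 on the log2 scale (adjusted p = 3.99e-05). Among 6 tested collagens outside the set 3 fell, which were COL17A1 (-0.66, adjusted p = 0.0017), COL27A1 (-0.87, adjusted p = 0.00437) and COL13A1 (-0.58, adjusted p = 0.00529), and 1 rose. Among laminins and netrins outside the set NTN4 rose (0.77, adjusted p = 0.000966) and LAMA1 did not pass (-0.61, adjusted p = 0.178). Among 4 proteoglycans FMOD (fibromodulin) fell (-0.66, adjusted p = 0.0155), and SPOCK1 (-0.77, adjusted p = 0.228) and SRGN (-0.52, adjusted p = 0.254) did not pass.

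Promoter sequence was examined because hypoxia-inducible factors bind a short core, ACGTG or GCGTG. RefSeq promoter windows (GRCh38.p14) were found for 33 of the 43 genes, and the 250 bases before each start were searched for the core on both strands, where its reverse complements are CACGT and CACGC and matches may overlap. A core was present in 9 of the 33 genes (27.3%) and in 47.4% of the 27305 genes of the promoter table. Of the 16 genes that fell in the dual knockout 11 had a window, and COL5A1 and THBS1 held a core. The others of the 16, COL1A1, COL5A2, COL6A1, COL8A1 and DCN, had no entry.

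The sequences of COL5A1 and THBS1 are printed for their cores, and those of ECM1 and LAMB2, which fell without a core in the window, for comparison. Each is the stretch of the window outside annotated exons, 5′ to 3′ on the strand of the gene, with cores in capitals. It ends 29 bases short of the RefSeq start for COL5A1 (chr9:134641553-134641773, plus strand), directly before the start for THBS1 (chr15:39580829-39581078, plus strand), 47 bases short of it for ECM1 (chr1:150507859-150508061, plus strand) and 68 bases short of it for LAMB2 (chr3:49133119-49133300, minus strand).
COL5A1: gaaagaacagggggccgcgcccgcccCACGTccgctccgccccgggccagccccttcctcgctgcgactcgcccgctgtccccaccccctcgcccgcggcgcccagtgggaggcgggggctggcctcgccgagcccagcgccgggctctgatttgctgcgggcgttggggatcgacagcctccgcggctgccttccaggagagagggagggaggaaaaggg
THBS1: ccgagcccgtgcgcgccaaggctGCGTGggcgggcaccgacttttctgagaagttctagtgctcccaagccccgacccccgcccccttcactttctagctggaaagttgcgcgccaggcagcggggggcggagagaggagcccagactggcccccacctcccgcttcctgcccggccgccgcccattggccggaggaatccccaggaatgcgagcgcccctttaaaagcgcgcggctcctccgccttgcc
ECM1: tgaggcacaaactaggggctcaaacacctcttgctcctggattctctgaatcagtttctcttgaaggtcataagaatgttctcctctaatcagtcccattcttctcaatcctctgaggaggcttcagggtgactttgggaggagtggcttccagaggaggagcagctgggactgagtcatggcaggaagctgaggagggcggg
LAMB2: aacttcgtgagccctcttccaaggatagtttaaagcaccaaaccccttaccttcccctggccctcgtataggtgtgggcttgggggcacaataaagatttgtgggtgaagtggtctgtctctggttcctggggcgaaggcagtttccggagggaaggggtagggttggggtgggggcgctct
COL5A1 and THBS1 each held 1 core, at the far end of the window from the start, and the others none. A match in these letters is a description and not a binding site, and an absent match says only that these letters are not in this window.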

How the data were processed

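RNA was extracted with Trizol from U-87 MG cells, and mRNA libraries were prepared from 1 μg of total RNA, in 4 groups of 3. The authors deposited 1 table of TPM values for the 12 libraries. The submitters' processing notes name FastQC 0.11.2, Trimmomatic 0.36, HISAT2 2.0, bedtools 2.26.0 and GRCh38, while the program that gave TPM, the annotation and the use of strand are not given in the sources used here. Each column summed to between 999955 and 999982. TPM keeps no sequencing depth, so no counting interval could be given, and a 0 is reported as listed at 0. The vector columns were assigned because their names carry no knockout code. Of the identifiers, 20148 matched a table of gene names, 76 matched GENCODE 29 only and 39 had no symbol.

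Values were analysed as log2(TPM + 1) (pseudocount 1) for genes reaching 1 TPM in 3 or more libraries, in 1 limma model of the 4 groups with a mean-variance trend (R 4.3.3, limma 3.58.1). P-values were two-sided and adjusted by Benjamini-Hochberg over all 11731 tested genes within each comparison. Summaries and figures were made with matplotlib 3.10.9, numpy 2.4.6 and pandas 2.3.3 in Python 3.11.15, and the fit was tested on simulated data. There 200 genes were changed in the dual knockout against vector. A change of 1 on the log2 scale was called in 123 of them (61.5%), and a change of 2 in 190. The simulated noise was independent between libraries, with no outlying library. In the data 31.8% of tested genes rose and 14.8% fell in that comparison, so these shares need not hold for the real fit. The members and lists were chosen with earlier results of these data known. Library values were given for members with an adjusted p under 0.05, a change against vector of 1 or more on the log2 scale in either direction and a mean TPM of at least 5 in the highest group, and for at least 1 member of each class. Some other members were given in full after their values were seen. Other genes came from lists of known matrix and collagen-processing genes, and cell type markers from fixed lists.

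Same-numbered libraries of the 3 knockout groups deviated from their group means together (Pearson's r across genes between 0.463 and 0.508 among the libraries numbered 1, between 0.227 and 0.250 among those numbered 2, and between 0.196 and 0.222 among those numbered 3), and those of vector and the knockouts did not in every pair (-0.0265 to 0.163). No source says what a number marks, so this pairing comes from the values alone. Alternatives were a pseudocount of 0.1, no filter, a mean TPM of at least 5, median ratio scaling, quantile normalization, only the groups compared, no mean-variance trend, a replicate block, removal of a transcript length trend over 20 bins, a stricter call rule that also asked for a log2 change of 1 or more, and each library left out in turn. A replicate block over the knockout groups alone was added after seeing the data. A planned count of glycine repeats in the proteins was not run, since no protein sequences were used here. A gene outside the set that the naming rule picks is not reported here.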

Additional observations from a re-analysis of the deposited data

Results flagged for a closer look

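For 10 matrix genes the change after loss of 1 factor differed by whether the other was present, by the limma interaction test over all genes. The interaction was -3.63 for COL1A2, -1.57 for COL1A1, -1.51 for COL6A3, -1.50 for COL5A2, -1.26 for COL5A1, -1.23 for COL8A1, -1.07 for LAMB2, -0.98 for LAMB3, -0.82 for ECM1 and -0.81 for COL7A1. COL7A1 lost its call under 9 of 20 alternatives, and the calls of the other 9 genes held under all 20, which leave out the stricter call rule of 1 on the log2 scale. LAMB3, ECM1 and COL7A1 are below 1 in size and fail that rule.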

How the results depend on the processing

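Of the called results, 1 of 12 in HIF1α-ko, 1 of 5 in HIF2α-ko, 12 of 20 in HIF1α/2α-ko, 8 of 12 against HIF1α-ko, 10 of 14 against HIF2α-ko and 9 of 10 interactions lost their call under no alternative other than the stricter call rule, and 0 changed sign. An alternative in which a gene was not tested, such as a mean TPM of at least 5 for a low gene, does not count as a loss. The count of members changed in HIF1α-ko (12) was 7 with no filter or with the length trend removed, 2 with only the groups compared and 4 under the stricter call rule of 1 on the log2 scale. In HIF2α-ko (5) it was 3 with only the groups compared and 1 under the stricter rule, and under the latter the count in HIF1α/2α-ko (20) was 6. Against HIF2α-ko (14) it was 22 with median ratio scaling, 24 with the length trend removed and 6 under the stricter rule.

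Leaving out 1 library gave 1 to 19 in HIF1α-ko, 1 to 9 in HIF2α-ko, 16 to 21 in HIF1α/2α-ko, 9 to 19 against HIF1α-ko, 10 to 24 against HIF2α-ko and 9 to 20 interactions, and each highest count came without vector replicate 1. In HIF1α-ko the count was 3 and 1 without vector replicates 2 and 3, and 5, 3 and 4 without HIF1α-ko replicates 1, 2 and 3. In HIF2α-ko leaving out vector replicates 2 and 3 gave 2 and 1, as did leaving out replicates 1 and 2 of the knockout. The causes were not tested.

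With a replicate block over the 12 libraries the counts were 15, 7, 20, 16, 18 and 15 in the order above. With the replicate block over the knockout groups only, added after seeing the data, they were 24 against HIF1α-ko and 26 against HIF2α-ko. The member counts of this section stand without those of all genes, which also moved between fits. A shift in them need not be particular to the members.

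Directions turned only in results that were called in neither fit. The sign turned under at least 1 alternative in 52 of 137 uncalled results over all comparisons. They included 12 of 23 in HIF1α-ko, 16 of 30 in HIF2α-ko and 9 of 15 in HIF1α/2α-ko. The values below are examples from members given library values. In HIF1α-ko COL1A1 was -0.09 with median ratio scaling, -0.036 with quantile normalization, -0.065 with the length trend removed and -0.056 without vector replicate 2. COL8A1 was -0.169, -0.146 and -0.132 under the same first 3 settings, -0.129 without vector replicate 3 and -0.119 without HIF1α-ko replicate 3. ECM1 was -0.108 with median ratio scaling and -0.094 with the length trend removed. In HIF2α-ko COL1A1 was 0.014 with median ratio scaling, 0.06 with the length trend removed, 0.141 when vector replicate 1 was left out and 0.105 when HIF2α-ko replicate 1 was, and COL8A1 was 0.026 without that last library. In HIF1α/2α-ko COL1A2 was 0.083 without vector replicate 1. Over the libraries left out, COL1A1 ranged from -0.056 to 0.277 and COL8A1 from -0.129 to 0.154 in HIF1α-ko, COL1A1 from -0.192 to 0.141 and COL8A1 from -0.293 to 0.026 in HIF2α-ko, and COL1A2 from -1.138 (no vector replicate 2) to 0.083 in HIF1α/2α-ko. Depth is unknown, so what it limits for low genes could not be given.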
